A study of Homo sapiens with 2 samples.

Results

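The clustered protocadherins are 53 protein-coding genes of human chromosome 5, of the 19974 protein-coding genes on chromosomes 1 to 22 and X. They were taken from the RefSeq gene table of GRCh38.p14 as the genes whose symbols begin with PCDHA (15 genes, the alpha cluster), PCDHB (16 genes, the beta cluster) or PCDHG (22 genes, the gamma cluster). The binding data came from ChIP-seq with an antibody to TCF19, a PHD finger protein of the nucleus, in the endometrial cancer cell line Ishikawa, an established human line. One cell population had received a lentivirus overexpressing TCF19 and the other a control lentivirus (genotype "negative control"). Both populations underwent puromycin selection, and the same antibody was used for both. Each gave 1 library and 1 list of called peaks, with no replicate, so no test of the condition was possible. Intervals are at the 95% level and reflect counting error alone. The labels give neither the promoter of the transgene nor the number of clones. The lists hold bound DNA and not expression, so they show neither whether any of these genes was transcribed nor the markers of the cell line.

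Protocadherins of these clusters are cell adhesion proteins of the cadherin family, best known from neurons, where different combinations on the cell surface let a neuron tell its own branches from those of its neighbours. Each alpha and gamma gene has its own promoter and its own large variable first exon, which is spliced to constant exons shared by the whole cluster, while each beta gene encodes a complete protein without a shared constant region. A short promoter element with the core letters CGCT lies before most of these starts, and the insulator protein CTCF and cohesin bind many of the promoters. The C-type genes, at the far end of the alpha and gamma arrays, differ from the rest in being expressed more evenly among neurons in the mouse. In several tumour types the clusters are silenced by DNA methylation.

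The gene table gives this layout in its coordinates. All 15 alpha genes end at position 141012347 and all 22 gamma genes at 141512975, whereas each of the 16 beta genes has an end of its own. A strand was given for 47 of the 53 genes, plus in each case, and the other members were taken to lie on the same strand. The variable starts therefore ran from 140786140 (PCDHA1) to 141489081 (PCDHGC5), and the clusters together spanned 607 kb.

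The core letters of the promoter element were searched before the starts. The letters CGCT occurred, on either strand, within the 250 bases before the start in 45 of 47 members with a RefSeq promoter sequence (build GRCh38.p14), against 75.9% of 15813 protein-coding promoters. Being 4 letters long, the core is common; the 7 letters TGTCGCT, which contain it, were found on either strand in 14 of 47 members and in 1.52% of all promoters. Of these 14, 10 were alpha, 1 was beta and 3 were gamma genes. The stretches below run 5′ to 3′ on the plus strand, with CGCT in capitals. They are shown because a summit at one of these promoters would lie beside this element, and they come from members of each cluster whose summits are described further on.
PCDHA2, chr5:140794777-140794816: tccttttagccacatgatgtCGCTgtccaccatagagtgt
PCDHA8, chr5:140841126-140841165: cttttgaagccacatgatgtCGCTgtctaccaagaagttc
PCDHA12, chr5:140875240-140875279: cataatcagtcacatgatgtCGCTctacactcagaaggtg
PCDHB4, chr5:141121719-141121758: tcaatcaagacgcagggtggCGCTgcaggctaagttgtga
PCDHB7, chr5:141172562-141172601: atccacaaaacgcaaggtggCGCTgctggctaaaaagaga
PCDHB15, chr5:141245310-141245349: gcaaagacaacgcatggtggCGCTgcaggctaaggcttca
PCDHGA5, chr5:141364103-141364142: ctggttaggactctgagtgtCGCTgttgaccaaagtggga
PCDHGA6, chr5:141373831-141373870: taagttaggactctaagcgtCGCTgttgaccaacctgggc
A match of 4 letters does not show that the whole element is there. In these 8 members the first capital stands 39 to 79 bases before the start.

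Depth and list length differ between the libraries. The overexpression list held 111569 summits on the chromosomes used and the control list 169542. Genome averages, solved from the statistics of the peaks, were 51.76 reads per 10 kb with overexpression and 57.96 reads per 10 kb without. Median summit pileups (reads overlapping the summit) were 13 and 12. TCF19 itself (chromosome 6, 31158589 to 31164215) had 3 summits inside the gene in overexpressing cells, the highest with 143 reads (121 to 168), and 0 in control cells. Overexpressing cells also carried the TCF19 lentivirus, so reads of the transgene and of the gene itself cannot be told apart here.

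The protocadherin clusters were dense in summits in both libraries. Their spans held 111 summits in overexpressing cells and 112 in control cells, or 18.3 per 100 kb (exact Poisson interval 15.1 to 22) and 18.5 per 100 kb (15.2 to 22.2). Chromosome 5 as a whole held 3.39 and 5.43 summits per 100 kb. The 200 kb before the clusters held 8.0 and 11.5 per 100 kb, and the 200 kb after them 10.0 and 12. These flanks contain genes such as HARS1, DIAPH1 and HDAC3. The counts in the clusters thus differed by 1 summit, while over chromosome 5 the overexpression list was the shorter one, with 6144 summits against 9854. The near-equal counts depended on list length: with lists of equal length the spans held 18.3 per 100 kb in overexpressing cells and 12.4 in control cells.

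Few variable starts had a summit close by. Within 1000 bp of the start, 16 of 53 members had a summit in overexpressing cells (30.2%, Wilson interval 19.5 to 43.5), against 62.2% of 15819 protein-coding genes with a known strand. In control, 18 of 53 members had one (34%, 22.7 to 47.4), against 50.3% of genes. The shares of alpha genes were 7 and 8 of 15, those of gamma genes 8 and 9 of 22, and 1 of 16 beta genes (PCDHB1) had a start summit in either library. In both libraries the share over all members lay below the background, and the upper limits of its counting intervals did too. In control cells the upper limit passed the background in narrower windows of 500 bp (16 members, 30.2%, 19.5 to 43.5, against 40.5%) and with lists of equal length (12 members, 22.6%, 13.5 to 35.5, against 32.5%). Windows of 2000 bp reach into the genes and turned the order round, with 45 members (84.9%, 72.9 to 92.1) against 67.8% of genes in overexpressing cells and 41 (77.4%, 64.5 to 86.5) against 57.5% in control cells.

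No start summit lay before a start. In the 1000 bp before the start, 0 of 53 members had a summit in overexpressing cells and 0 of 53 in control cells, which allows a share of up to 5.66%, against 26.9% and 19.7% of all protein-coding genes. All 17 start summits of overexpressing cells lay 35 to 834 bp downstream of the start (median 350), and all 21 of control 166 to 968 bp downstream (median 383). The RefSeq promoter sequences, from 250 bases before to 50 after the start, held 1 summit of overexpressing cells, at PCDHGB5, and 0 of control.

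Instead, summits stood at a regular distance inside the genes. Between 1001 and 3000 bp downstream of the start, called the downstream window from here on, 47 of 53 members had a summit in overexpressing cells (88.7%, 77.4 to 94.7), against 13.9% of protein-coding genes. In control it was 43 of 53 (81.1%, 68.6 to 89.4), against 14.9%. This window was chosen after the positions of the summits had been seen, so its counts are a description. Of the 75 downstream summits of overexpressing cells, 70 lay 1500 to 2499 bp from the start (93.3%, 85.3 to 97.1), and of the 66 of control 62 did (93.9%, 85.4 to 97.6). Their median distances were 1965 and 1960 bp. Over the members, 41 had a downstream summit in both libraries (8.02% of all genes) and 4 in neither (79.2%). Counting members at either place, 50 of 53 had a summit within 1000 bp or downstream in overexpressing cells, against 68.3% of all genes, and 49 of 53 in control cells, against 58.0%.

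**Figure D1:**
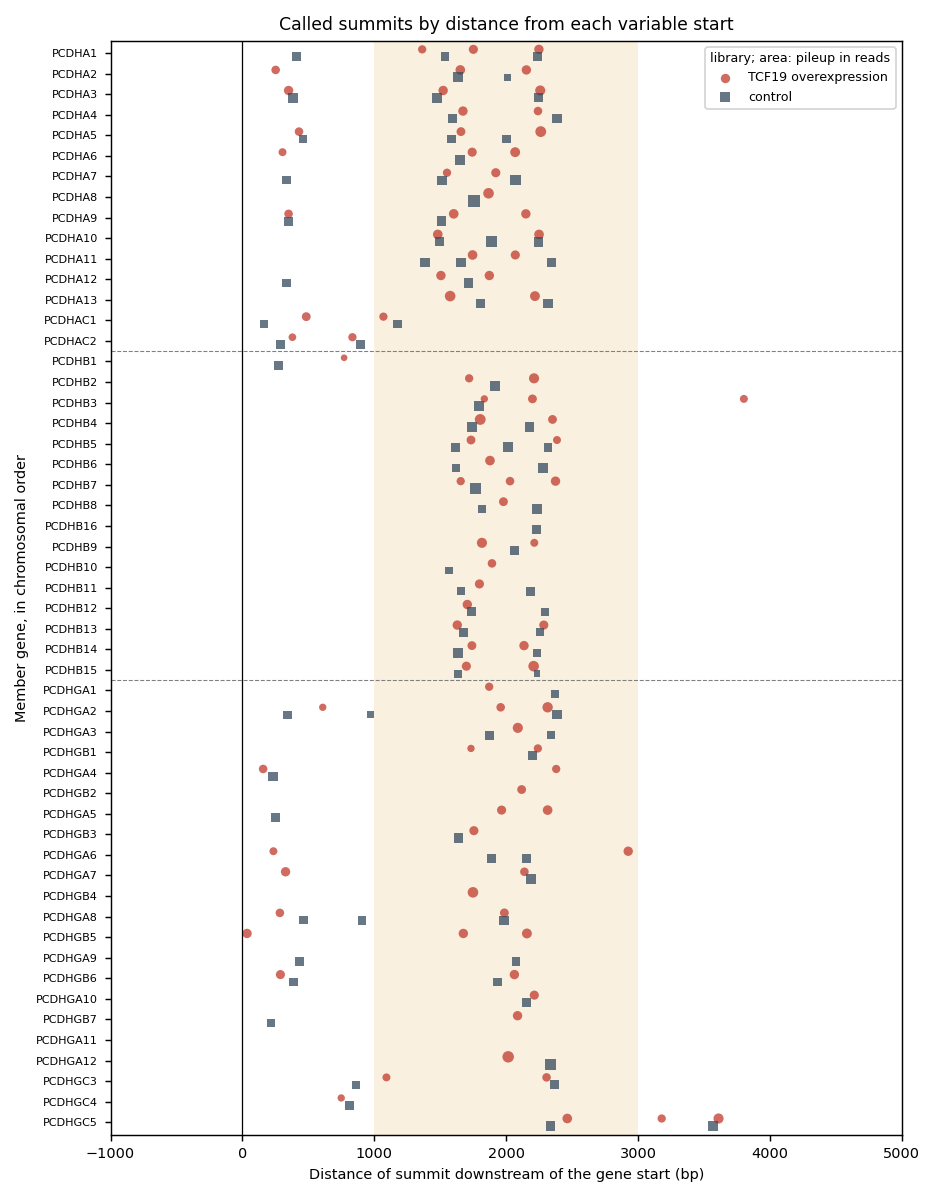
Position of each called summit (x axis, bp downstream of the gene start) for the 53 member genes in chromosomal order (y axis), in overexpressing cells (red circles) and in control cells (dark squares), with symbol area proportional to pileup; the shaded band is the window of 1001 to 3000 bp, and dashed lines part the alpha, beta and gamma genes. Summits lie in 1 band of 1500 to 2499 bp in nearly every row, with a second, sparser group within 1000 bp of alpha and gamma starts. Each summit is drawn in the row of the nearest start below it, so none can lie left of 0, and summits beyond 5000 bp are not drawn.

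Stronger summits and lists of equal length gave the same order of the windows. At 4-fold enrichment or more, 29 members had a downstream summit with overexpression, against 4.43% of genes, and 27 in control cells, against 4.49%. Start summits of that fold were left at 3 members, against 39.0%, and at 2 in control cells, against 21.6%. With the control list shortened to the length of the other by fold, 33 members had a control summit downstream, against 7.42%, and 12 at the start, against 32.5%.

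The profile over all protein-coding genes had its peak at the start. From 0 to 499 bp downstream of the start, 13 of 53 members had a summit in overexpressing cells (24.5%), against 40.1% of all genes. In control cells 16 of 53 had one (30.2%), against 29.9%, a share near the background. From 1500 to 1999 bp it was 34 members, against 3.84% of genes, in overexpressing cells, and 30 members, against 4.18%, in control cells. From 2000 to 2499 bp it was 33 members, against 2.93%, in overexpressing cells, and 31, against 3.11%, in control cells. From 2500 to 2999 bp it was 1 member, against 1.97% of genes, in overexpressing cells, a share near the background, and 0, against 2.79%, in control cells.

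**Figure D2:**
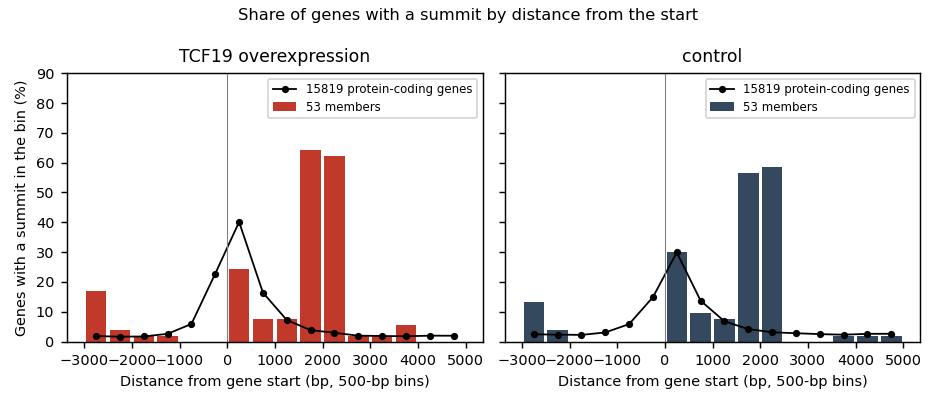
Percentage of genes with at least 1 summit (y axis) in bins of 500 bp by distance from the gene start (x axis), for the 53 members (bars) and 15819 protein-coding genes (black line), in overexpressing cells (left) and control (right). All genes peak just after the start at 40.1% and 29.9%, while the members peak from 1500 to 2499 bp. A summit counts for every member within reach, so bars left of 0 can hold summits that lie inside a neighbouring member.

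In summits per length, the downstream windows stood well above the starts. They held 71.4 summits per 100 kb (56.2 to 89.5) in overexpressing cells and 62.8 (48.6 to 80.0) in control cells. The windows around the starts held 16 (9.34 to 25.7) and 19.8 (12.3 to 30.3). The rest of the cluster spans held 4.79 (2.88 to 7.48) and 6.3 (4.08 to 9.31), against 3.39 and 5.43 over chromosome 5. In neither library did the counting intervals of these 3 parts overlap. The downstream windows were set after the summit positions had been seen, and the rest excludes them, so this separation is a description and not a test. Summits were also not independent counts, because 26 members in overexpressing cells and 20 in control cells had 2 or more downstream summits.

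**Figure D3:**
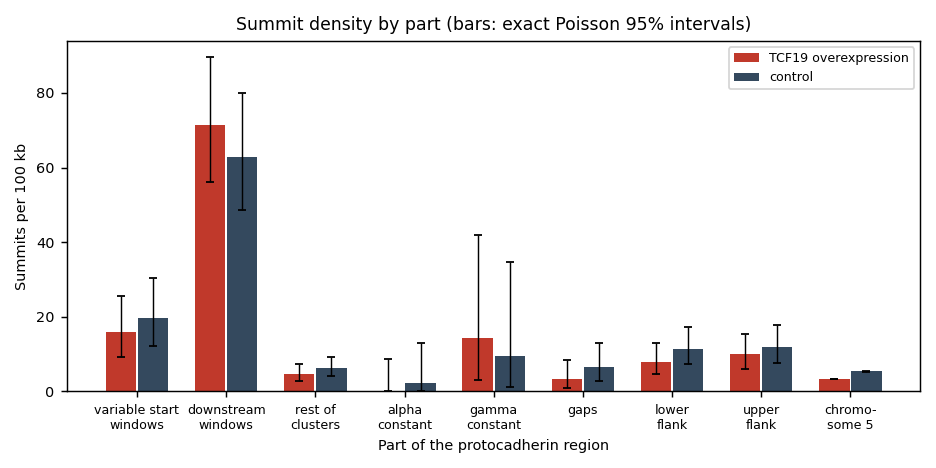
Summits per 100 kb (y axis) in parts of the protocadherin region (x axis), in overexpressing cells (red) and control (dark), with exact Poisson 95% intervals. The downstream windows, at 71.4 and 62.8, stand above every other part shown.

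The shared 3′ ends had no summit. Within 1000 bp of the alpha end and of the gamma end there were 0 summits in overexpressing cells and 0 in control cells. Of all protein-coding genes, 11.4% and 12.3% had a summit within 1000 bp of their end. Over the 53 members, counting the beta ends too, 1 had one in both libraries (5.87% of all genes), 1 with overexpression alone (5.53%), 1 in control alone (6.47%) and 50 in neither (82.1%). The windows at the shared ends cover just 4.0 kb, so a count of 0 allows up to 75 summits per 100 kb, and a lower density than at the starts was not detectable there. The longer constant parts, from 3000 bp after the last variable start to the shared end, give a closer limit. In the alpha cluster this part of 42.9 kb held 0 summits in overexpressing cells, which allows up to 7.0 per 100 kb, and 1 in control cells (2.33 per 100 kb, 0.0591 to 13.0). The variable part of the alpha cluster held 20.6 (14.6 to 28.3) and 22.2 (16 to 30.2). PCDHACT, the alpha constant region of the gene table, held 0 and 1.

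The gamma constant part had summits in both libraries. Its 20.9 kb held 3 summits in overexpressing cells and 2 in control cells (14.4 per 100 kb, 2.96 to 42.0, and 9.57, 1.16 to 34.6). The interval is wide and includes the density of the gamma variable part, 22.1 (15.5 to 30.7) and 19.1 (13.0 to 27.1). Of the summits called in this part, 1 stood at 141500403 with 17 reads (9.9 to 27.2) and a 5.47-fold enrichment in overexpressing cells, and its partner at 141500317 with 11 reads (5.49 to 19.7) and 3.04-fold in control cells. The fold enrichment is the authors' value, of summit pileup over local background. The other summits lay closer to PCDHGC5, 3179 and 3610 bp after its start with 14 and 21 reads in overexpressing cells, and 3566 bp after it with 20 reads in control cells.

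Among the alpha genes, the downstream summits were nearly complete. They were called at 14 of 15 members in each library, the same 14, and the member without one was PCDHAC2. The highest downstream summit of each alpha gene had 14 to 24 reads in overexpressing cells (median 19) and 16 to 28 in control cells (median 19). PCDHA8 had 23 reads (14.6 to 34.5) at 140843053 in overexpressing cells and 28 (18.6 to 40.5) at 140842941 in control cells, the highest of any member in control cells. PCDHA5 had 24 reads (15.4 to 35.7) at 140823875 and 16 (9.15 to 26.0) at 140823198. PCDHA13 had 23 (14.6 to 34.5) and 19 (11.4 to 29.7). In all 3 genes the libraries' counting intervals overlapped.

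At some alpha genes control had the higher count. PCDHA7 had 17 reads (9.9 to 27.2) in overexpressing cells and 23 (14.6 to 34.5) in control cells, and PCDHA10 had 19 (11.4 to 29.7) and 24 (15.4 to 35.7). These intervals overlapped too. Alpha intervals were wide and often held several summits: 12 alpha genes in overexpressing cells and 9 in control cells had 2 or more downstream summits, a median of 558 and 698 bp apart.

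Alpha starts had summits in some members and not in others. PCDHA3 had 18 reads (10.7 to 28.4) at 140801407 in overexpressing cells and 18 at 140801440 in control cells, 350 and 383 bp after its start. PCDHA9 had 15 reads (8.4 to 24.7) and 17 (9.9 to 27.2) with both summits at 140848732. PCDHA2 and PCDHA6 had a start summit in overexpressing cells alone, with 15 (8.4 to 24.7) and 13 (6.92 to 22.2) reads. PCDHA1, PCDHA7 and PCDHA12 had one in control alone, with 15, 15 and 16 reads (the last with an interval of 9.15 to 26.0). No start summit of these 5 genes in 1 list alone exceeded 16 reads, against median pileups of 13 and 12 over all summits. PCDHA4, PCDHA8, PCDHA10, PCDHA11 and PCDHA13 had none in either library, but all 5 had downstream summits in both.

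The C-type alpha genes had another arrangement. PCDHAC1 had a start summit of 16 reads (9.15 to 26.0) at 140926783 in overexpressing cells and of 14 (7.65 to 23.5) at 140926465 in control cells. Its downstream summits stood closer to the start than in the other alpha genes, at 1069 and 1178 bp, with 14 and 16 reads. PCDHAC2 had 2 start summits in each library, the higher with 14 reads (7.65 to 23.5) at 140967310 in overexpressing cells and 18 (10.7 to 28.4) at 140967371 in control cells, and no downstream summit. In between, 10825 and 11552 bp after the start of PCDHAC1 in overexpressing cells, summits with 12 and 10 reads were called, each with a control summit within 100 bp, of 10 and 11 reads.

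The beta genes had their summits almost only downstream. A downstream summit was called at 14 of 16 members in overexpressing cells and at 15 of 16 in control cells, with 14 shared, and PCDHB16 was the one seen in control alone, with 15 reads (8.4 to 24.7). The highest downstream summits had 15 to 24 reads in overexpressing cells and 11 to 24 in control cells, with a median of 18 in both. PCDHB4 had 24 reads (15.4 to 35.7) at 141123621 with a 6.75-fold enrichment in overexpressing cells, and 18 (10.7 to 28.4) at 141123559 with 5.97-fold in control cells. PCDHB7 had 18 (10.7 to 28.4) at 141175018 and 24 (15.4 to 35.7) at 141174411. The intervals overlapped at both genes.

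PCDHB15, the last gene of the beta array, differed most between the libraries among summits that could be paired. At 141247603 overexpressing cells had 23 reads (14.6 to 34.5) and control, at 141247630, had 8 (3.45 to 15.8). Each pileup taken over its own genome average, the log2 ratio of overexpression over control was 1.67. In raw reads the counting intervals overlapped narrowly, between 14.6 and 15.8. With each limit taken over its genome average pileup (1.4286 with overexpression, 1.5823 in control), they did not overlap. This pair was singled out as the most different of 42.

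PCDHB1 stood apart from the other beta genes. It had no downstream summit in either library, and it was the 1 beta gene with a start summit, of 9 reads (4.12 to 17.1) at 141052145 in overexpressing cells and 16 (9.15 to 26.0) at 141051648 in control cells. The enrichment in control cells, 6.58-fold, was the highest of any start summit of a member in either list. Beta genes have ends of their own, and summits within 1000 bp of these were called at PCDHB3 and PCDHB8 in overexpressing cells and at PCDHB6 and PCDHB8 in control cells. At PCDHB8 and PCDHB6 these are the downstream summits again, because the genes are short: PCDHB8 covers 2750 bp. At PCDHB3 the summit, with 13 reads (6.92 to 22.2) at 141104275, lay beyond the gene's end at 141103827.

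Gamma genes varied more from member to member. Downstream summits were called at 19 of 22 in overexpressing cells and at 14 of 22 in control cells. Both libraries had one at 13, overexpressing cells alone at 6 (PCDHGA4, PCDHGB2, PCDHGA5, PCDHGB4, PCDHGB5 and PCDHGB7), control alone at PCDHGA9, and neither at PCDHGA11 and PCDHGC4. Over all genes a downstream summit in overexpressing cells alone was called in 5.85% and in control alone in 6.91%. Of the 6, PCDHGB4 had 23 reads (14.6 to 34.5) at 141389446 and PCDHGB5 20 (12.2 to 30.9) at 141400104, and the other 4 had 14 to 19. Downstream summits of these 6 genes had folds of 2.66 to 3.71. Their local background was 3.23 to 3.98 times the genome average. None of the 6 was therefore left at 4-fold or more, or at a local background of at most 3 times the average. Whether the gamma counts of 19 and 14 differ beyond the spread between cultures could not be tested with 1 library each.

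PCDHGA12 had the highest downstream summit of all members in overexpressing cells. Its 27 reads (17.8 to 39.3) at 141432522 stood beside 24 (15.4 to 35.7) at 141432842 in control cells. PCDHGA2 had 22 reads (13.8 to 33.3) and 18 (10.7 to 28.4). PCDHGA11 had neither a start nor a downstream summit in either library, the single member of the 53 for which this was so.

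Of the 22 gamma genes, 12 had a start summit in at least 1 library. PCDHGA4 had 15 reads (8.4 to 24.7) in overexpressing cells and 18 (10.7 to 28.4) in control cells, and PCDHGB6 had 17 (9.9 to 27.2) and 15 (8.4 to 24.7). Overexpressing cells alone had a start summit at PCDHGA6 (13 reads), PCDHGA7 (18 reads, 10.7 to 28.4) and PCDHGB5 (18 reads, 35 bp after the start, the closest of any). Control alone had one at PCDHGA5 (17 reads, 9.9 to 27.2), PCDHGA9 (16 reads), PCDHGB7 (14 reads) and PCDHGC3 (15 reads). At PCDHGC3 an interval of overexpressing cells overlapped that of control. Its summit, of 13 reads (6.92 to 22.2), lay 1092 bp after the start, just past the limit of 1000 bp. Over the 53 members, 11 had a start summit in both libraries, 5 in overexpressing cells alone, 7 in control alone and 30 in neither. Over all genes these shares were 45.8%, 16.5%, 4.56% and 33.2%. The control list was the longer one, and with lists of equal length the order of the counts in 1 library alone turned round, to 8 members in overexpressing cells alone, against 32.0% of genes, and 4 in control alone, against 2.19%.

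The gamma C-type genes were each different. PCDHGC3 had downstream summits of 15 reads (8.4 to 24.7) at 141478272 in overexpressing cells and 16 (9.15 to 26.0) at 141478331 in control cells. PCDHGC4 had start summits alone, 749 and 812 bp after its start, of 11 reads (5.49 to 19.7) and 16 (9.15 to 26.0). PCDHGC5 had no start summit but downstream summits of 19 reads (11.4 to 29.7) and 18 (10.7 to 28.4).

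**Figure D4:**
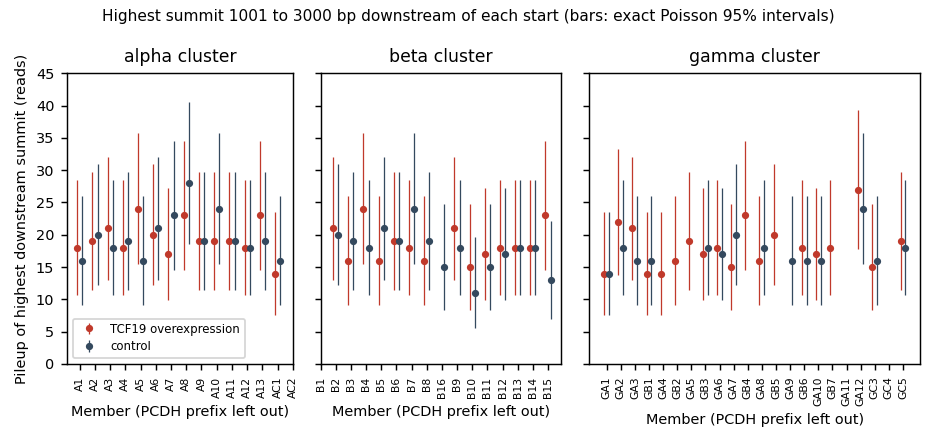
Pileup in reads (y axis) of the highest summit 1001 to 3000 bp downstream of each start, by member in chromosomal order (x axis, without the prefix PCDH), in overexpressing cells (red) and control (dark), with exact Poisson 95% intervals; a missing point means that no summit was called. Values run from 14 to 27 reads in overexpressing cells and from 11 to 28 in control cells, and the intervals of the libraries overlap at each member with both.

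Where summits of the libraries could be paired, their pileups were much alike. Within the clusters, 42 pairs of summits lay within 100 bp of each other, with a median pileup of 17 reads in both libraries. In raw reads the counting intervals overlapped in all 42. Over the genome averages, those of the PCDHB15 pair at 141247603 did not. The median log2 ratio of overexpression over control, each over its genome average, was 0.15, with the middle of the pairs between -0.04 and 0.35 (quartiles). Over the genome, 41014 pairs had the same median, 0.15. A pair with equal pileups in reads has this ratio, because the genome averages of the libraries differ, so the value shows neither a gain nor a particular match. In the downstream windows the median of 27 pairs was 0.15, and in the start windows that of 8 pairs was -0.07. A bulk library cannot tell a lower pileup in every cell from the same pileup in fewer cells.

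In the deposited lists, cluster intervals were shared between the libraries at a higher share than intervals of the genome as a whole. Of the 81 overexpression intervals in the clusters, 65 shared at least 1 bp with a control interval (80.2%, 70.3 to 87.5), against 67.4% over the genome. Of the 84 control intervals, 65 overlapped an overexpression interval (77.4%, 67.4 to 85.0), against 43.0%. With lists of equal length the shares were 63.0% of overexpression intervals (52.1 to 72.7), against 48.4% over the genome, and 87.7% of control intervals (76.8 to 93.9), against 46.1%. Cluster intervals were wider than those of the genome, and cluster summits had higher median pileups (17 and 16 reads, against 13 and 12). The genome shares were matched for neither. At the 41 members with a downstream summit in both libraries, the nearest summits of the libraries lay a median of 92 bp apart, and within 200 bp at 35 of them.

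Intervals in the clusters were also wide, and the reads around them many. The median width was 630 bp in overexpressing cells and 666 bp in control cells, against 420 and 390 bp over the genome. Widths of 900 bp or more made up 35.8% and 34.5% of cluster intervals, against 7.28% and 4.74% of all. By family the medians were 1030 and 980 bp in alpha, 920 and 889 bp in beta, and 419 and 492 bp in gamma, so the wide intervals lay mostly in alpha and beta.

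The local background at the summits was highest in gamma, where the intervals were narrowest, and higher in alpha than in beta. It is the read count in 10 kb around a summit, or the genome average where that is higher, solved from the statistics of the peak. In gamma its median was 167 reads in overexpressing cells and 150 in control cells, or 3.23 and 2.59 times the genome average. In alpha it was 2.45 and 2.12 times, and in beta 1.92 and 1.59 times, against 1.58 and 1.21 times at all summits of the genome. Gamma folds were lower, with a median of 3.36 and 3.3, against 4.0 and 4.11 in alpha and 4.47 and 4.65 in beta. The part of this local background in the lower folds and in the number of gamma calls was not tested.

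Pseudogenes of the arrays had summits at the same place. Of the 6 pseudogenes within the clusters, 5 had a summit inside in both libraries, which lay 1455 to 2469 bp above the lower end of the pseudogene for the highest summit of each. PCDHB17P had 18 reads (10.7 to 28.4) at 141157613 in overexpressing cells and 18 at 141157883 in control cells. PCDHGB9P had 20 (12.2 to 30.9) and 15 (8.4 to 24.7). PCDHGB8P had 0 in both. Members and pseudogenes of a family share much of their sequence, so which copy a read came from is uncertain, and misplaced reads were not tested.

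Promoter composition was similar with and without a start summit. GC content in the 250 bases before the start had a median of 37.6% in 15 members with a start summit in overexpressing cells and 37.6% in 32 without, and of 37.2% in 17 and 39.2% in 30 for control. The C-type members were the exception in composition: 4 of them ranged from 57.6% to 63.2%, against 30.0% to 48.8% in the other 43, and a median of 62.4% over 15813 promoters. These 4 genes, PCDHAC1, PCDHAC2, PCDHGC3 and PCDHGC4, had a start summit in at least 1 library. PCDHGC3 had one in control alone, with an overlapping interval in overexpressing cells whose summit lay past the limit of 1000 bp. PCDHGC5, the C-type gene without a promoter sequence here, had none. Of the other members 19 of 48 had one in at least 1 library, against 66.8% of all genes. The letters under the downstream summits were not analysed here.

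Genes beside the clusters were also examined. Of 16 neighbouring protein-coding genes with a strand, between the clusters or within 200 kb of them, 13 had a start summit in overexpressing cells and 5 in control cells, against 62.2% and 50.3% of all genes, and 4 and 5 had a downstream summit, against 13.9% and 14.9%. Start values were identical at HARS1 and HARS2 (16 and 12 reads), and in overexpressing cells at IK and NDUFA2 (10 reads) and at HDAC3 and RELL2 (18 reads). The genes are therefore not all separate summits. TAF7, a general transcription factor gene between the beta and gamma clusters, had a start summit of 11 reads (5.49 to 19.7) in overexpressing cells and 0 summits there in control cells. Of 10 measured non-clustered protocadherins (of 12 listed), 5 and 3 had a start summit and 4 and 3 a downstream one, with the same shares of all genes as background. PCDH8 had a start summit of 22 reads (13.8 to 33.3) in overexpressing cells alone, and PCDH11X downstream summits of 19 (11.4 to 29.7) and 17 (9.9 to 27.2) reads. Of 8 classical cadherins 2 were measured, CDH2 and CDH4, both with downstream summits in both libraries.

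Genes that act on the protocadherin promoters were examined at their own starts. Of 11 measured (of 12 listed), 9 had a start summit in each library, against 62.2% and 50.3% of all genes, and 1 and 0 had a downstream one, against 13.9% and 14.9%. CTCF, the insulator protein, had 19 reads (11.4 to 29.7) and 12 (6.2 to 21.0). SMCHD1, a chromatin protein that keeps these clusters silent in the mouse, had 26 (17 to 38.1) and 13 (6.92 to 22.2). STAG1, a cohesin subunit, had 25 (16.2 to 36.9) and 12 (6.2 to 21.0). These were named after their values were seen. Of the 9 genes with a start summit in both libraries, 8 had the higher pileup, in raw reads, in overexpressing cells. DNMT3B, with 16 and 17 reads, did not. These reads were not taken over the genome averages, of which that of control was the higher. Of the 7242 protein-coding genes with a start summit in both libraries, 69.8% had the higher pileup in overexpressing cells.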

How the data were processed

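Peaks were called from each library alone, 1 list per library, with reads on hg38 and with BWA 0.7.12 and MACS2 2.1.0 named, per the submitters' processing notes. Calling parameters and the handling of duplicates and input were not given in the sources used here. The deposited files hold the authors' score, fold enrichment (a ratio), −log10 p-value and −log10 q-value per summit. The lowest deposited −log10 q-value was 1.3011 in both lists. Intervals and summit positions, counted from 1 here, are the authors' values.

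Pileups in whole reads were solved from the fold and the −log10 p-value (misfit at most 0.001), which gave a whole number at 99.996% of overexpression and 99.997% of control summits. Fragment lengths of 276 and 273 bp made the local background, where it was above the genome average, a whole number of reads in 10 kb. These are reads of the ChIP library itself, so folds are not corrected for input. The steps were tested on simulated data (Python 3.11.15, scipy 1.17.1, pandas 2.3.3).

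Starts are the lower end on the plus strand and the higher end on the minus strand in the RefSeq table; 15819 of 19974 protein-coding genes had a strand. Members named in the text are the 15 with the highest start summits, those with a start summit in 1 list alone, the C-type genes and, added after the values were seen, the 10 with the highest downstream summits and further members singled out in the text. The window from 1001 to 3000 bp was also set after summit positions were seen. Members and lists were chosen with earlier results of these data known. Each group had 1 library, so no p-value was computed. Alternatives were other windows, thresholds, list lengths and overlaps.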

Additional observations from a re-analysis of the deposited data

How the results depend on the processing

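No paired analysis was possible because each group had 1 library. Of 84 values under alternatives, 61 stayed and 23 moved. Counts of members stayed when within 1.5 times the count reported, and densities and shares of intervals when within the counting interval of the value reported. Windows of 2000 bp take in downstream summits by construction and gave start summits at 45 members in overexpressing cells, against 67.8% of genes, and 41 in control, against 57.5%, above the background and not below it, with 3 in control alone and 27.5 start summits per 100 kb in overexpressing cells. At 4-fold or more, start summits were called at 3 and 2 members, 1 in overexpressing cells alone and 0 in control alone, with 2.83 per 100 kb in both libraries and 7.91 and 8.24 over the spans. Downstream summits of that fold were called at 29 and 27 members, against 4.43% and 4.49% of genes. With lists of equal length, 8 members had a start summit in overexpressing cells alone and 4 in control alone. The control spans then held 12.4 per 100 kb, and 63.0% of overexpression and 87.7% of control intervals overlapped, against 48.4% and 46.1% over the genome. At a −log10 q-value of at least 2, 3 members had a start summit in overexpressing cells alone. At a local background of at most 3 times the genome average, overexpressing cells had start summits at 10 members, against 50.1% of genes, 2 of them alone, and 14.0 per 100 kb over the spans. Under that limit 33 members had a downstream summit in overexpressing cells, against 8.55% of genes, and 38 in control, against 11.4%. The higher count was then that of control. Downstream counts in the alternatives added after the data were seen ran from 29 to 50 members in overexpressing cells and from 27 to 45 in control. The window of 501 to 3000 bp gave 50 and 45, against 26.8% and 25.9% of genes. Shared ends had 0 summits throughout. Depth limits every pileup: a summit of 18 reads has a counting interval of 10.7 to 28.4 reads.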
